A study of Mus musculus with 4 samples.

Results

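Sparse long chains are runs of many widely spaced eIF4A2 binding peaks on one strand of a chromosome, as they appeared in an eCLIP experiment on mouse embryonic stem cells. A chain was formed by joining peaks of the same chromosome and strand when the gap from the end of one peak to the start of the next was at most 10000 bases. Chains of 10 or more peaks with a median gap of at least 1000 bases were kept. Only positions entered this choice, and the fold was not used. It gave 217 chains with 3230 peaks, which was 6.76% of the 47777 peaks in the list. They were 32.9% of the 660 chains of 10 or more peaks. The other 443 chains of that size, with a median gap under 1000 bases, are called dense long chains here and held 8114 peaks. The list as a whole formed 17797 chains, of which 8975 were single peaks.

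The cells were of the J1 line (strain 129S4/SvJae), cultured feeder-free with serum and leukemia inhibitory factor, and this was the only line and the only condition studied. They were irradiated with ultraviolet light of 254 nm at 400 mJ/cm2. The experiment comprised 4 libraries, 2 of RNA recovered with an antibody against eIF4A2 (IP) and 2 of input RNA from the same kind of cells, each described as biological replicates. The deposited list gives 1 log2 fold of IP over input per peak and no value per library. The error of each fold, the replicate spread and the sequencing depth are therefore unknown, and every spread below is over peaks or over chains.

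eIF4A2 is an ATP-dependent RNA helicase of the DEAD-box family. Helicases of this family unwind or remodel RNA structure, and its close paralog eIF4A1 does so as a subunit of the cap-binding complex that prepares mRNA for the scanning ribosome. In eCLIP, light crosslinks a protein to the RNA it touches, so a peak marks a contact on the RNA, and its strand is that of the RNA. The gene of a mouse mRNA is usually made of short exons between much longer introns, which are removed by splicing in the nucleus. Contacts on a mature mRNA therefore fall into clusters when they are drawn on the genome, whereas contacts on unspliced RNA, or on exons far apart, are drawn as a scattered row. Several neighbouring genes on one strand can also be joined into 1 chain.

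The name given to these chains, intron-like, could not be checked. The peaks are in mm9 coordinates, and only an annotation of another build (GRCm38, GENCODE M21) was at hand, so genes, exons, introns and sequences under the chains were not analysed here. Lengths alone give a scale. In that annotation the median of 21951 protein-coding genes spans 17.4 kb, 33.4% of them are at least as long as the median chain, and the median intron is 1.41 kb long.

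The chains were long and thinly covered. Their span had a median of 31.7 kb (interquartile range 25.7 to 41 kb) and ran from 9.55 to 135 kb, against a median of 15.6 kb for the dense chains. The median chain held 13 peaks. Exactly 10 peaks were held by 47 chains, 11 to 15 peaks by 115 chains, and more than 30 peaks by 9 chains. Peaks covered a median of 1.3% of the span, and at most 3.81%. In dense chains the median was 3.79% and the maximum 94.2%. The span and the spacing follow from the rule, and these values are a description.

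Spacing inside the chains was uneven. Of the 3013 gaps, 17.5% were 5000 bases or longer, 28% were 2000 to 4999 bases and 19.5% were 1000 to 1999 bases, but 13% were 1 to 199 bases and 62 pairs of peaks touched. Splitting each chain wherever a gap exceeded 1000 bases gave 2177 sub-stretches, of which 69.2% were single peaks and the largest held 14 peaks. A median chain was made of 9 such sub-stretches. The coefficient of variation of the gaps within a chain had a median of 0.936 (range 0.52 to 1.54), against 1.43 in dense chains.

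The 5 chains with the most peaks differed in layout. The first, a minus-strand chain of chromosome 7 at 140179548 to 140314992, held 74 peaks over 135 kb with a median log2 fold of 1.46. Of these, 14 peaks lay within 2 kb of its 5′ end, and the others were strung out behind them. The 14 peaks had a median log2 fold of 2.01 and a median width of 82.5 bases, against 1.38 and 40.5 bases for the others. The plus-strand chain of chromosome 4 at 125167978 to 125270892 had the same layout. Its 57 peaks included 9 within 2 kb of the 5′ end, with a median log2 fold of 2.80 and a maximum of 4.24, against a median of 1.82 for the others.

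The other 3 of these 5 chains had fewer peaks or none gathered at the 5′ end. The minus-strand chain of chromosome 15 at 58807166 to 58885108 held 38 peaks, 5 of them within 2 kb of the 5′ end, with a median log2 fold of 1.47 over the whole chain. In a minus-strand chain of chromosome 11 at 88466708 to 88579629, 49 peaks over 113 kb had a median log2 fold of 1.24, and none of them reached 8-fold. The plus-strand chain of chromosome 8 at 122755288 to 122842157 was the strongest of the 5, with 41 narrow peaks (median 23 bases), a median log2 fold of 2.56 and a maximum of 4.33. Its peaks at 8-fold or more, 10 in all, were more than in any other sparse chain. The 5 longest spans belonged to the chains of chromosomes 7, 11, 4 and 8 just named and to a minus-strand chain of chromosome 3 at 153272050 to 153387987. The latter spread 38 peaks over 116 kb, with a median gap of 3134 bases, a median log2 fold of 1.35 and a maximum of 2.24.

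**Figure D1:**
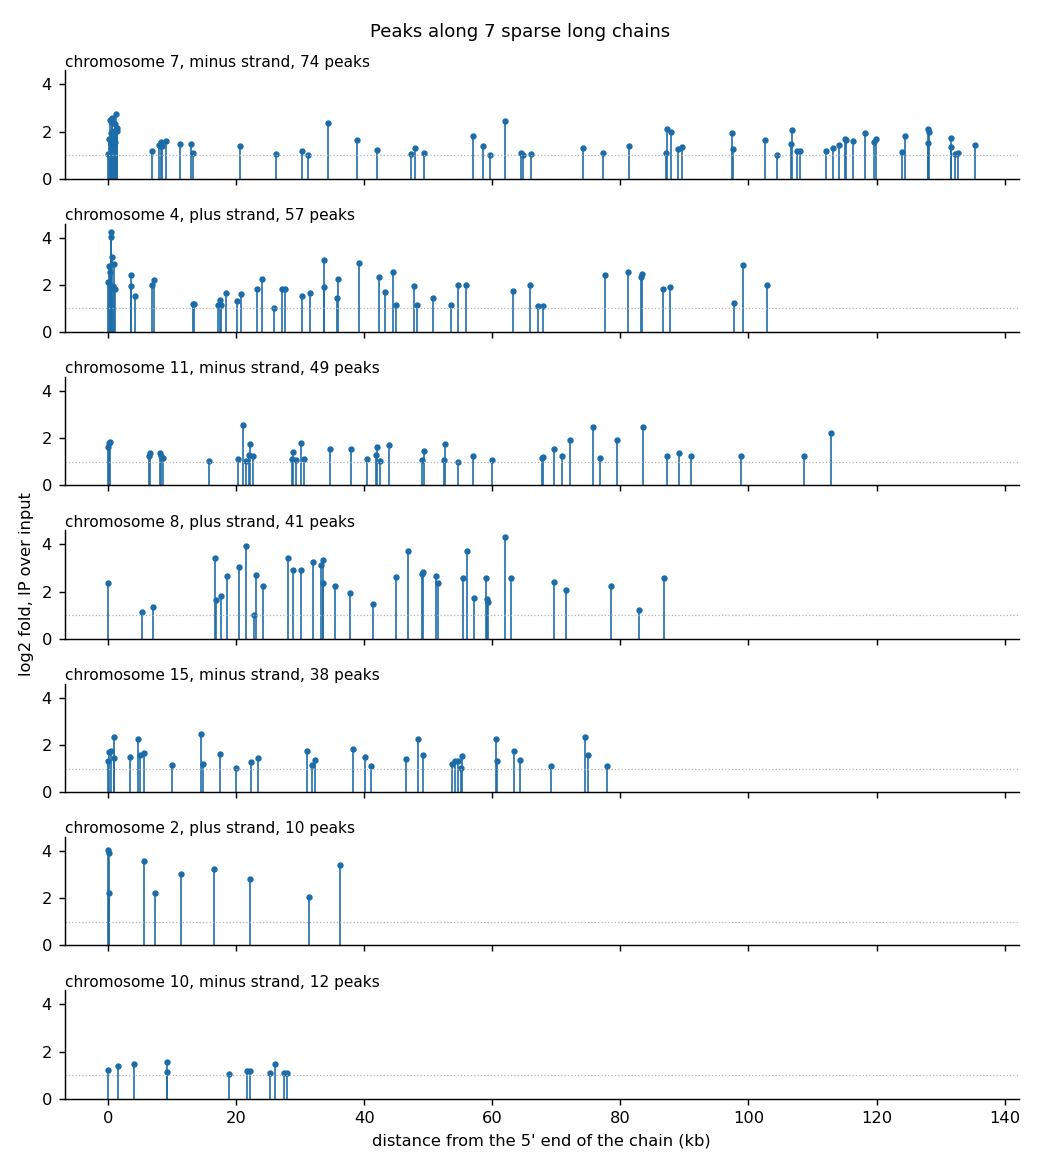
Peaks along 7 sparse long chains: the 5 with the most peaks, then the chain with the highest and the one with the lowest median fold. The horizontal axis is the distance from the 5′ end of the chain in kb, the vertical axis the log2 fold of IP over input, each point 1 peak, and the dotted line a log2 fold of 1. The chains of chromosomes 7 and 4 begin with a tight cluster (14 and 9 peaks within 2 kb), and the peaks of the chromosome 8 chain stand higher than those of the chains of chromosomes 11 and 15.

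Peaks in sparse chains were slightly weaker and narrower than peaks in dense chains. Their log2 fold had a median of 1.60 (interquartile range 1.24 to 2.04), a 3.04-fold enrichment. The median was 1.72 in dense chains and 1.65 over all peaks. The difference between sparse and dense chains was -0.12 (95% interval -0.15 to -0.08), small beside the within-chain standard deviation of 0.55. Median width was 30 bases (interquartile range 19 to 44) in sparse chains, 37 bases in dense chains and 32 bases over all peaks. Width and fold were hardly related when the peaks of all sparse chains were pooled (Spearman's rho 0.01 across 3230 peaks, which share chains and libraries). The interval treats peaks as independent and leaves out the error of the folds.

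A log2 fold of 3 or more (8-fold) was reached by 144 peaks of the sparse chains, or 4.46% (Wilson 95% interval 3.80 to 5.23%). The background over the whole list was 4.03%, so the share was near it, and dense chains gave 4.97% (4.51 to 5.46%). A log2 fold of 2 or more (4-fold) was reached by 850 peaks, or 26.3% (24.8 to 27.9%), against a background of 28.3% and 32.6% (31.6 to 33.6%) in dense chains. At least 1 peak at 8-fold was found in 76 of the 217 chains (35%), and 24 chains had none at 4-fold. The dense chains gave a similar share, with 159 of 443 (35.9%) holding a peak at 8-fold and 49 holding none at 4-fold. Of the 144 peaks at 8-fold in sparse chains, 63 lay in 15 chains with 3 or more of them, and 1 chain held 10. In dense chains, 45 chains with 3 or more held 260 of 403.

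**Figure D2:**
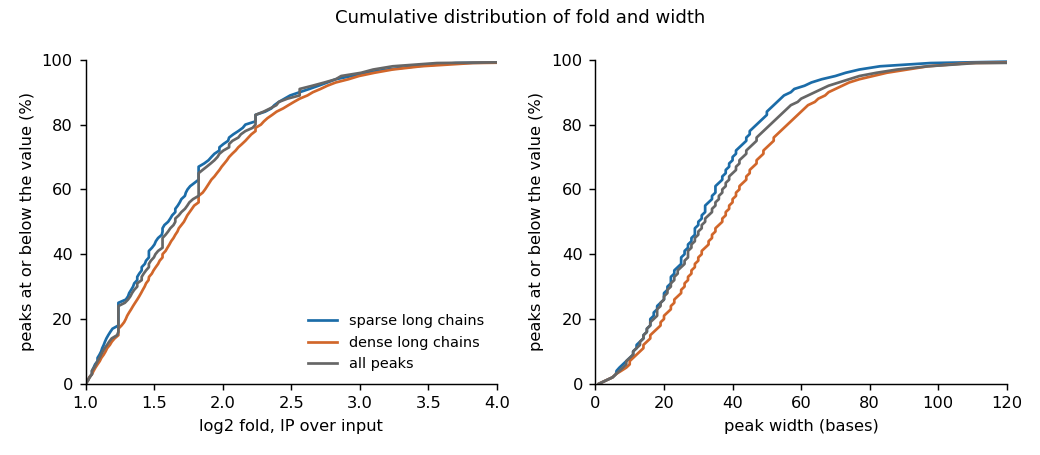
Cumulative share of peaks (percent, vertical axis) by log2 fold of IP over input (left) and by peak width in bases (right), for sparse long chains, dense long chains and all peaks. The steps are fold values that recur in the list. The sparse curve reaches 50% at a log2 fold of 1.60 and a width of 30 bases, left of the dense curve at 1.72 and 37 bases.

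Many folds in the list recur. With the commonest value read as a ratio of 2 to 1, which sets a constant of 0.24 on the log2 scale, 20.5% (19.1 to 21.9%) of the peaks in sparse chains lay at a whole-number ratio. This compares with 9.87% (9.24 to 10.5%) in dense chains and 27.8% over all peaks. Among peaks at 8-fold or more the share was 74.3% (66.6 to 80.7%) in sparse chains, 34.7% (30.3 to 39.5%) in dense chains and 68.2% over the list. The read counts behind the ratios are unknown, and their part in the folds above was not tested.

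The 5 peaks with the highest fold lay in 5 different chains. To the digits listed, all 5 folds lay at whole-number ratios in the sense above, as did 74.3% of the sparse-chain peaks at 8-fold or more. The highest log2 fold in any sparse chain was 5.37 (41.3-fold), at 34048820 to 34048869 of chromosome 17 (plus strand), in a chain of 14 peaks with a median of 1.53. The next was 4.63, at 97301482 to 97301513 on the plus strand of chromosome 11, in a chain of 25 peaks with a median of 1.82. A log2 fold of 4.41 followed at 28152075 to 28152110 of the same strand of chromosome 17. The same log2 fold of 4.33 was listed for a minus-strand peak of chromosome 11 at 5920921 to 5920991, in a chain with a median of 1.73, and for the peak of the chromosome 8 chain named above, at 122817174 to 122817225.

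Chains differed from one another in strength. The median log2 fold of a chain ran from 1.18 to 3.14, with an interquartile range over chains of 1.45 to 1.80. Of the variation in log2 fold over all peaks of sparse chains, 22% lay between chains, with an intraclass correlation of 0.164. In dense chains the values were 27.1% and 0.23. For width, 12.2% lay between sparse chains, with an intraclass correlation of 0.0599. Most of the spread in both measures was thus between peaks of the same chain.

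The highest median belonged to a plus-strand chain of chromosome 2 at 27533203 to 27569394. From 5′ to 3′ its 10 peaks had log2 folds of 4.05, 2.24, 3.94, 3.56, 2.24, 3.05, 3.24, 2.82, 2.05 and 3.41. Its first 3 peaks lay within 0.232 kb of its 5′ end, and the others followed at gaps of 1701 to 9312 bases. All 10 were above 4-fold and narrow, with a median width of 20 bases. To the digits listed, all but the fold of 2.05 lay at whole-number ratios in the sense above, against 20.5% of the peaks over all sparse chains. The next highest were a minus-strand chain of chromosome 17 at 56594368 to 56615791 (10 peaks, median 2.58), the chromosome 8 chain named above, a minus-strand chain of chromosome 5 at 113561238 to 113592212 (17 peaks, median 2.56) and a second plus-strand chain of chromosome 8 at 122878664 to 122956256 (20 peaks, median 2.51). In the chromosome 5 chain no peak fell below a log2 fold of 1.82.

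At the low end, the 12 peaks of a minus-strand chain of chromosome 10 at 76515678 to 76543589 had log2 folds of 1.24, 1.41, 1.48, 1.54, 1.14, 1.06, 1.18, 1.18, 1.11, 1.50, 1.07 and 1.08 from 5′ to 3′. No peak of that chain reached 4-fold. The plus-strand chain of chromosome 1 at 136501186 to 136521744 followed with 11 peaks and a median of 1.21, and the chromosome 11 chain of 49 peaks with 1.24. To the digits listed, several other sparse chains had the same median as this chromosome 11 chain.

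Fold did not change from the 5′ to the 3′ end of sparse chains by more than its error. The 5′-most peak had a mean log2 fold of 1.73 and the 3′-most peak 1.76, a difference of -0.03 ± 0.05 (SE over 217 chains; 95% interval -0.13 to 0.07). The 5′ peak was higher in 104 chains, the 3′ peak in 109, and they were equal in 4. The peaks of each chain were also divided by order into 3 groups, 5′, middle and 3′. The mean log2 fold of the 5′ and 3′ groups was 1.75 in both, and 107 chains were higher at the 5′ side against 110 at the 3′ side. In dense chains the 5′-most peak was higher by 0.19 ± 0.04 (SE over 443 chains) and led in 279 chains against 162. The difference between the classes was -0.23 (95% interval -0.35 to -0.10) with end peaks and -0.12 (-0.19 to -0.04) with these groups. With peaks within 50 bases merged first it was -0.14, and its interval (-0.28 to 0.005) included 0. Among chains of at least 15 peaks it was -0.08 (-0.27 to 0.12), where 70 sparse chains had a 5′ excess of 0.14 (-0.02 to 0.31). In that subset neither interval excluded 0.

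Ordered by spacing, the difference in fold between the ends was not monotonic. It was 0.23 ± 0.06 (SE) for the 170 chains with a median gap under 200 bases, 0.23 ± 0.06 for 200 to 500 bases and 0.11 ± 0.08 for 500 to 1000 bases. Among sparse chains it was -0.02 ± 0.06 for the 131 chains between 1000 and 2000 bases, -0.27 ± 0.11 for the 55 chains between 2000 and 3000 bases and 0.32 ± 0.16 for the 31 chains above. With end peaks, the last of these classes stood on the other side of 0 from the one before it, and a fall of the difference with spacing does not describe all 6 classes. Between the 5′ and 3′ groups of peaks, the differences in the same order were 0.16, 0.12, 0.04, 0.04, -0.14 ± 0.05 and 0.09 ± 0.09. By that measure the widest class was within its SE of 0.

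**Figure D3:**
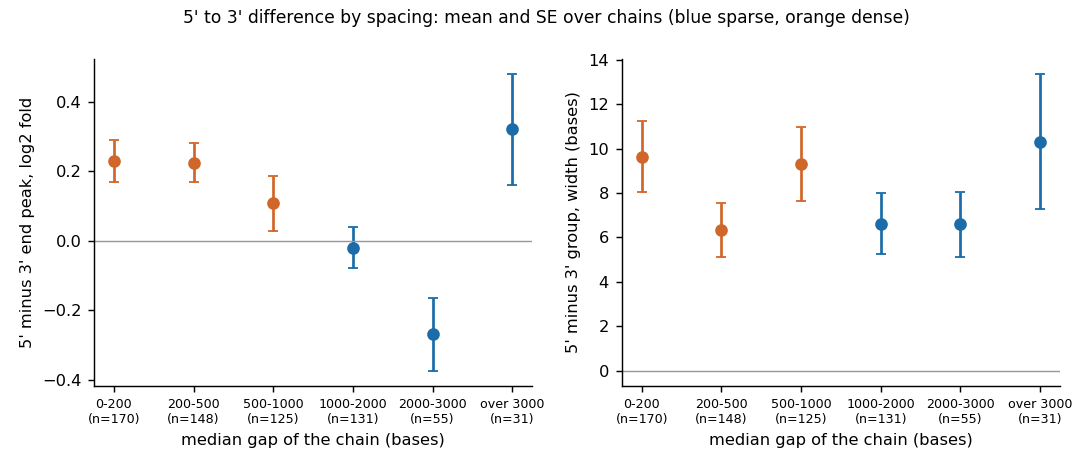
Difference between the 5′ and 3′ sides of a chain (5′ minus 3′) by the median gap of the chain in bases, as the mean and SE over the number of chains given under each class. The left panel shows the log2 fold of the end peaks, and the right panel the width in bases of the 5′ and 3′ groups of peaks, with dense chains in orange and sparse chains in blue. The fold difference runs from 0.23 in the tightest class to -0.27 at 2000 to 3000 bases and 0.32 in the widest, whereas the width difference is above 6 bases in every class.

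Single chains had steep profiles in both directions. The largest fall from the 5′ to the 3′ group of peaks was in the plus-strand chain of chromosome 17 at 34048293 to 34082007, from a mean log2 fold of 3.05 to 1.28. It holds the 5.37 peak named above as its second from the 5′ end, followed by peaks at 2.69 and 3.08. A minus-strand chain of chromosome 11 at 5869878 to 5923734 fell from 3.18 to 1.77, and a plus-strand chain of chromosome 12 at 110136282 to 110157648 from 2.36 to 1.12. The largest rise was in a plus-strand chain of chromosome 2 at 28360404 to 28393310, from 1.95 to 3.48, and its last 3 peaks had log2 folds of 3.24, 3.63 and 3.56. On chromosome 5, a plus-strand chain at 115956870 to 115981320 rose from 1.72 to 3.13 and a minus-strand chain at 114064437 to 114099769 from 1.70 to 2.95. These 6 chains were picked as the extremes of 217, each group holds few peaks, and they are given as a description.

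**Figure D4:**
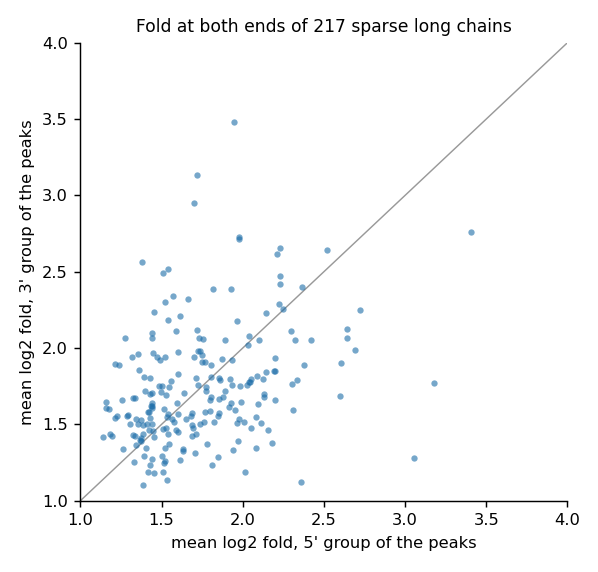
Mean log2 fold of the 3′ group (vertical axis) against that of the 5′ group (horizontal axis) of the peaks, with each point 1 of 217 sparse long chains and the line at equal values. Points lie on both sides of the line, 107 below it (higher at the 5′ side) and 110 above it.

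Peaks narrowed from 5′ to 3′. The 5′-most peak was 42.2 bases wide on average and the 3′-most 29.1 bases, a difference of 13.1 ± 2.1 bases (SE; 95% interval 8.88 to 17.3), with the 5′ peak wider in 137 chains and narrower in 80. Between the 5′ and 3′ groups of peaks the difference was 7.14 ± 1.01 bases, and the 5′ group was wider in 154 chains against 62. The widest peak of a chain lay in the 5′ group in 45.1% (38.5 to 52%) and in the 3′ group in 18.4% (13.7 to 24.3%) of the 206 chains with a single widest peak. The highest fold lay in the 5′ group in 65 and in the 3′ group in 66 of the 207 chains with a single highest value. Dense chains had a similar width difference of 14.8 ± 1.6 bases between end peaks, and the difference between the classes was -1.74 bases (95% interval -6.92 to 3.44). The narrowing rested on the ends. Without the peaks within 2 kb of either end it was 1.26 bases (-2.18 to 4.69) in the 199 chains left with 6 or more peaks.

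Peaks also lay closer together on the 5′ side. With the gaps of each chain split by order into 2 sides, the mean gap was 2411 bases on the 5′ side and 2838 bases on the 3′ side, a difference of -426 ± 114 bases (SE; 95% interval -650 to -203). The 5′ side was the tighter in 142 chains and the wider in 75. The first gap was under 200 bases in 58 chains (26.7%, 21.3 to 33%), and the last gap in 26 chains (12%, 8.31 to 17%). Within 2 kb of the end lay 470 peaks at the 5′ side and 379 at the 3′ side, each count including the end peak itself. At least 3 peaks were found there in 63 chains (29.0%) at the 5′ end and 41 (18.9%) at the 3′ end. In dense chains these were 308 (69.5%) and 221 (49.9%) of 443, higher shares that the split by median gap favours. The 5′ excess in sparse chains was not restricted to the first kilobases, since without the peaks within 2 kb of either end the difference in gap was -387 bases (-668 to -106). Dense chains differed in the same direction, by -317 ± 62.6 bases.

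Clusters of 5 or more peaks within 2 kb of the 5′ end occurred in 14 sparse chains (6.45%), and of 5 or more at the 3′ end in 5 (2.30%). They were more common in the 443 dense chains, with 208 (47.0%) at the 5′ end and 124 (28.0%) at the 3′ end. The split by median gap favours such clusters in dense chains, so this contrast follows at least in part from the rule. After the sparse chains of chromosomes 7 and 4, the largest 5′ clusters in sparse chains were 8 peaks in a plus-strand chain of chromosome 1 at 36125270 to 36161312 and 7 peaks in a minus-strand chain of chromosome 14 at 20961259 to 21000918. In the chromosome 1 chain the cluster had a median log2 fold of 1.83 and a median width of 48.5 bases, against 1.63 and 34 bases for the other peaks. In the chromosome 14 chain these were 1.88 and 47 bases, against 1.24 and 20 bases. A cluster of 5 peaks in a plus-strand chain of chromosome 3 at 36845318 to 36872226 was narrower than the other peaks, with 34 against 44.5 bases. The largest 3′ cluster in a sparse chain held 6 peaks, in a plus-strand chain of chromosome 8 at 74093630 to 74116729. Over all sparse chains, peaks within 2 kb of the 5′ end had a median log2 fold of 1.66 and a median width of 39 bases. Those near the 3′ end had medians of 1.65 and 26 bases, and those between had 1.56 and 30 bases. The chains with clusters were chosen after their values were seen.

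**Figure D5:**
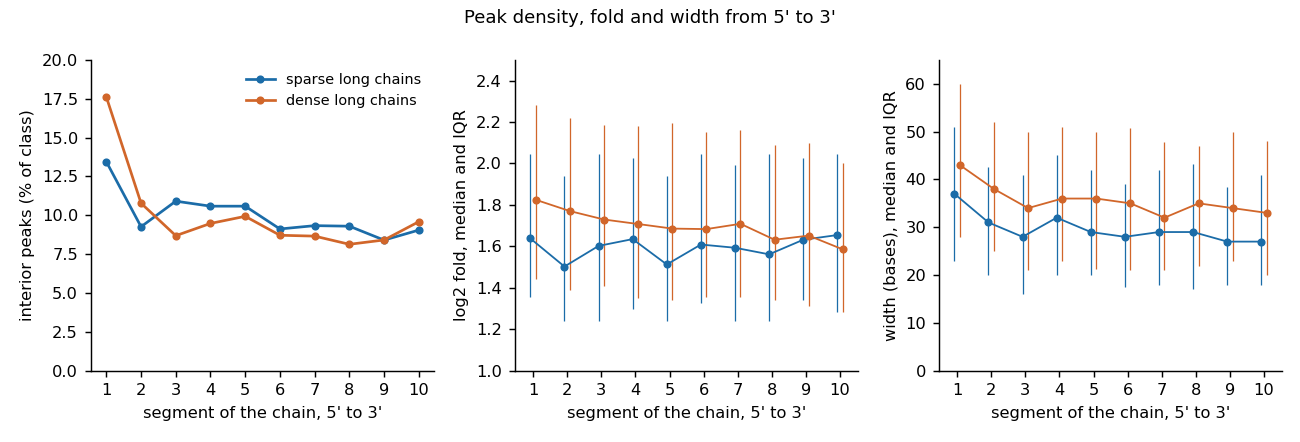
Profile over 10 equal segments of the chain span from 5′ (1) to 3′ (10) for sparse and dense long chains: share of interior peaks in percent (left; end peaks define the span and are left out), median log2 fold with the interquartile range (middle) and median width in bases with the interquartile range (right). In sparse chains the first segment holds 13.4% of interior peaks and the last 9.05%, the median fold stays between 1.50 and 1.65, and the median width falls from 37 to 27 bases.

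Median fold was lower for peaks farther from the nearest peak of their chain. Sparse-chain peaks with a neighbour at 1 to 199 bases had a median log2 fold of 1.65 (682 peaks), those with the nearest at 1000 to 4999 bases had 1.56 (1299 peaks) and those with none within 5000 bases had 1.46 (207 peaks). Width fell in the same order, from 33.5 to 29 and 26 bases. The share at 8-fold did not follow it, with 5.72% (4.21 to 7.72%), 3.77% (2.87 to 4.95%) and 4.35% (2.3 to 8.06%). Folds of neighbouring peaks were weakly alike. Spearman's rho was 0.25 for gaps under 200 bases (455 pairs), 0.17 for 1000 to 4999 bases (1434 pairs) and 0.12 for gaps of 5000 bases or more (527 pairs). In dense chains it was 0.48, 0.16 and 0.12 over the same ranges. For gaps from 200 to under 1000 bases it was 0.20 in sparse chains (597 pairs) and 0.33 in dense chains (2261 pairs). By Spearman's rho the classes thus differed in value under 1000 bases and hardly above. Pearson's correlation in sparse and dense chains was 0.19 and 0.20 for 1000 to 4999 bases. For gaps of 5000 bases or more it was 0.22 and 0.09. Pairs share chains and libraries, and these values are a description. Over all peaks of a chain, the intraclass correlation of log2 fold was 0.164 in sparse and 0.23 in dense chains. Likeness of neighbours was not separated from this likeness within a chain.

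Few of the chains held peaks on the other strand, which the rule did not consider. Only 4 of the 217 spans held any, with 16 opposite-strand peaks in all. This was 2.05 opposite-strand peaks per Mb over the 7.8 Mb of summed span, and 7 per Mb in dense chains. The whole list held 9.07 peaks per Mb on each strand, up to the last peak of each chromosome. The difference was not tested, and 9 of the 16 peaks came from 1 span. Sparse chains lay on the plus strand in 116 cases and on the minus strand in 101 (53.5%, 46.8 to 60%).

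Sparse chains were found on 20 chromosomes. Chromosome 11 had the most with 26, followed by chromosomes 2, 5 and 8 with 21 each, and chromosome X had 1. As a share of chains of 10 or more peaks they ranged from 14.3% on chromosome X (2.57 to 51.3%, 7 chains in all) to 51.3% on chromosome 10 (36.2 to 66.1%), where 20 were sparse and 19 dense. Chromosome 15 had the largest part of its peaks in sparse chains, 12.6%, and chromosome X the smallest, 1.32%. The median log2 fold of the peaks in them lay between 1.43 and 1.78 on all 20 chromosomes.

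Chains just inside and just outside the thresholds are described without a test. The closest above the limit on spacing were 3 chains with median gaps of 1002, 1009 and 1012 bases and median log2 folds of 2.33, 1.65 and 1.64. The closest below it had median gaps of 994, 991 and 982 bases and median log2 folds of 1.88, 1.65 and 1.65. The 47 chains of exactly 10 peaks had a median log2 fold of 1.65, and 61 chains of 9 peaks with the same spacing had 1.54. Beyond the ends of the chains, the next peak on the strand was at a median distance of 37.6 kb on the 5′ side and 28.7 kb on the 3′ side, and it lay within 20 kb in 68 and 83 chains. A chain may therefore be part of a longer row of peaks.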

How the data were processed

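The data were 1 list of peaks from eCLIP of eIF4A2 in J1 mouse embryonic stem cells, made from 2 IP and 2 input libraries. The build mm9 and the tools STAR 2.6.1b and cutadapt 1.18 are named per the submitters' processing notes. How peaks were called and filtered and replicates combined is not given in the sources used here. Values in the deposited list are log2 folds of IP over input, calculated by the authors, and all are above 1. This scale was read from the values. The list holds no p-values, counts or values per library, so no test of IP against input was possible and the depth is unknown.

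Starts were changed to count from 1. On each strand, peaks were taken in order of position and joined into chains. The strand was taken as that of the RNA. Each chain counted once in 5′ to 3′ comparisons. The 5′ and 3′ groups of a chain each hold the number of its peaks divided by 3, rounded down. Intervals at 95% are Wilson intervals for shares, binomial order-statistic intervals for medians, and 1.96 SE over chains for means. They cover counting or spread over peaks or chains only, and no p-value was computed. Whole-number ratios were sought with a relative tolerance of 1e-07. The finding of chains was tested on made-up positions. The 5′ to 3′ comparison of end peaks was run on the listed folds shuffled within each chain, with and without an added shift at the 5′ peak. The added shift is recovered by construction, so that part checked the code only. Python 3.11.15, numpy 2.4.6, pandas 2.3.3, scipy 1.17.1 and matplotlib 3.10.9 were used. From the GRCm38 annotation (GENCODE M21) only lengths were taken, and no coordinates were converted.

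The chains, the measures and the rule for naming were chosen with earlier results of these data known. Named were the 5 chains with the most peaks, the 5 longest, the 5 with the highest and 3 with the lowest median fold, 3 with the steepest profile in each direction, the 5 highest peaks, and chains next to the thresholds. Other choices of gap, joining distance, number of peaks, width, fold and end were tried, as the closing section states.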

Additional observations from a re-analysis of the deposited data

How the results depend on the processing

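Of 92 alternative values, 70 stayed within the set range (1.5 times for the count of chains, the 95% interval for other values). The number of chains depended on the rule's limits. From 217 it went to 16 at a log2 fold of at least 2, 109 with a width of at least 20 bases, 86 with a median gap of at least 2000 bases, 70 with at least 15 peaks, and 68 and 436 with joining distances of 5000 and 20000 bases. Chaining only peaks at a log2 fold of at least 2 raised, by construction, the median log2 fold to 2.54 and the share at 8-fold to 22.4%. It moved the median width to 32 bases and the 5′ excess in width to 23.0 bases, turned the difference in spacing from -426 to 51.7 bases (interval -947 to 1051 over 16 chains), and left the class differences at -0.0183 for the median log2 fold and -0.0890 for the 5′ to 3′ fold. With a joining distance of 5000 bases the share at 8-fold was 3.30%. A minimum width of 20 bases raised the median width to 37 bases, by construction, and moved the class difference in log2 fold to -0.16. With at least 15 peaks the median width was 32 bases, the 5′ excess in log2 fold 0.14 and its class difference -0.0775. The 5′ excess in width was 36.0 bases with peaks within 50 bases merged, 7.14 bases between the 5′ and 3′ groups of peaks and 1.26 bases without the peaks within 2000 bases of either end. Except for those by construction, the causes were not tested. Settings chosen after seeing the data were the removal of peaks near the ends or of the 5 chains with the most peaks, the limit to chains of 10 to 20 peaks and 20 to 50 kb, and the 5′ and 3′ groups for the class difference in fold. No paired analysis was possible because the list has no values per library, no replicate could be left out, and what depth limits is unknown.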

Other observations

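The 2 strong chains of chromosome 8 follow each other on the plus strand, 36.5 kb apart, with median log2 folds of 2.56 and 2.51. Behind them lie 2 single peaks with log2 folds of 3.05 and 3.24, and then, 14.6 kb further on, a dense chain of 175 peaks at 123012062 to 123116331, whose median was 2.20. Along this row the 3 chains had median gaps of 1706, 4142 and 258 bases and median widths of 23, 29.5 and 36 bases. The row was chosen after its values were seen.

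In all, 5 pairs of sparse chains lay within 50 kb of each other on one strand. Their median log2 folds differed by 0.05 to 0.59, with a median of 0.18, against a median of 0.23 over all pairs of sparse chains. With 5 pairs this is a description.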
